A study of Mus musculus with 4 samples.

Results

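The genes described here are lumican (Lum), decorin (Dcn), osteoglycin (Ogn), biglycan (Bgn), periostin (Postn) and fibroblast activation protein (Fap), 6 of the 27932 genes counted in any library. They were selected on earlier results of the same libraries, in which several of them differed between genotypes, so their genotype values are given as a description. Where the number of them called in a genotype fit is printed, it stands beside the share of all genes called, and nothing is read from it. Kidney cells of mouse embryos at embryonic stage E14.5 were profiled by Drop-seq, which captures single cells with barcoded beads in droplets and counts the 3′ ends of their RNA. The 2 groups compared, wildtype and mutant, had 2 libraries each. The wildtype libraries came from embryos of a mixed strain, mostly CD-1 and 129. The mutant libraries came from embryos of the same mixed strain that were Hoxa9,10,11 and Hoxd9,10,11 -/-, that is, homozygous mutant for 6 Hox genes of the Abd-B type. The labels do not say whether the 2 libraries of a genotype came from separate embryos or pools, so p-values measure only the spread between these libraries.

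Lumican, decorin, osteoglycin and biglycan are small leucine-rich proteoglycans, secreted proteins with a core of leucine-rich repeats that bind fibrillar collagen and growth factors. Periostin is a matricellular protein that is secreted into collagen-rich matrix and binds integrins, and Fap is a membrane-bound serine peptidase that cuts after proline in activated fibroblasts. In the developing kidney such matrix genes are known from the interstitial stroma, which lies around the ureteric bud and the nephrons.

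Lum, whose product helps to space collagen fibrils, lies on mouse chromosome 10 at 97565128 to 97572703, plus strand, with 3 exons in its longest coding transcript (GENCODE, GRCm38). Dcn, a binder of collagen and of TGF-beta, ends 47.0 kb before Lum on the same strand and lies at 97479609 to 97518143 of chromosome 10, with 8 exons. Ogn, also called mimecan, lies at 49608046 to 49624501 on the plus strand of chromosome 13, with 7 exons, and overlaps Cenpp on the opposite strand. Whether the authors' counting used strand is not given in the sources used here. Bgn, the closest relative of Dcn, lies at 73483602 to 73495933 of the X chromosome, plus strand, with 8 exons. Postn lies at 54361109 to 54391037 of chromosome 3, plus strand, with 22 exons in its longest coding transcript. Fap lies at 62500943 to 62574075 of chromosome 2, minus strand, with 26 exons.

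The 250 bases before the start site are shown for Ogn, Bgn and Postn. These are the 3 genes with an entry in the RefSeq promoter table (GRCm38.p6), and shared control of the 6 genes was not tested. For Postn, the nearer of the 2 start sites in the table was taken. Capitals mark TATAAA on either strand, the letters of a TATA box.
Postn, chr3:54360857-54361106, plus strand: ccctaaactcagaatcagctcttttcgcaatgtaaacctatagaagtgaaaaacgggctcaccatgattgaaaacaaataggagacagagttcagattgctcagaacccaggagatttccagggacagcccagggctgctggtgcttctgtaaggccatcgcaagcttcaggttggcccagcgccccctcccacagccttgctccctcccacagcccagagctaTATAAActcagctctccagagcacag
Bgn, chrX:73483351-73483600, plus strand: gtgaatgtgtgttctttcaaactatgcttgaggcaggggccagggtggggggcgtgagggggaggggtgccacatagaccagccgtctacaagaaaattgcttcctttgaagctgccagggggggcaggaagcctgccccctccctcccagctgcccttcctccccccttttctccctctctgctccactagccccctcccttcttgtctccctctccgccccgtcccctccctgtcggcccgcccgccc
Ogn, chr13:49607765-49608014, plus strand: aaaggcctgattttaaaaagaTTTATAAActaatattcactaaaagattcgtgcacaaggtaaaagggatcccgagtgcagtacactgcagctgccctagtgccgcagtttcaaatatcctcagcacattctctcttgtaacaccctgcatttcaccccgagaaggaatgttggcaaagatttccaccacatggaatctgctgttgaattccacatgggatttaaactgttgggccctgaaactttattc
TATAAA stood 26 bases before the start site of Postn. In Ogn it stood 227 bases before the start, overlapping a match on the other strand at 229 bases, and Bgn held none. The letters were found in 12.3% of the 32536 promoter windows of that length. G and C made up 64.4% of the Bgn window, 52% of the Postn window and 42% of the Ogn window, against a median of 52.4% over all windows. The E-box letters CANNTG, which read the same on both strands and do not overlap TATAAA in these windows, occurred at 3 places in Ogn and at 1 in Bgn, and 66.2% of all windows held them.

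The tables held 1061 to 6428 barcodes and 3572346 to 24834658 counts per library, and 11779 cells were kept, 1852 and 4788 wildtype and 810 and 4329 mutant. Median counts per kept cell were 2394 to 3595, and 2 barcodes were shared by kept cells of wildtype 2 and mutant 2. More than 10% mitochondrial counts were found in 7.76% and 9.06% of wildtype barcodes and in 19.6% and 29.1% of mutant barcodes, which were left out. Malat1, a nuclear RNA, stood at 2282 and 1679 CPM in wildtype and 4676 and 6548 CPM in mutant kept cells. RNA of the targeted genes was present in every library, so 3′ counts do not check the genotype: over all kept cells Hoxa10 was lower in both mutants (155, 175, 93.8 and 126 CPM), Hoxa11 overlapped, and Hoxa9, Hoxd9, Hoxd10 and Hoxd11 were higher in both mutants, Hoxd11 at 76.7, 53.7, 113 and 197 CPM. The part of mitochondrial share and Malat1 in the results below was not tested.

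Cells were sorted into lineages by marker genes that include none of the 6 genes, and counts were summed per library and gate, as CPM (the gene's count divided by all counts of the gate in that library, scaled to 1000000). The stroma gate rests on collagen and stromal regulator genes and held 127 and 128 wildtype and 178 and 640 mutant cells. It is strict: it held 3.90%, 1.42%, 17.3% and 11.8% of the counts of wildtype 1, wildtype 2, mutant 1 and mutant 2. Clusters built without the 6 genes assigned 22.5%, 19.9%, 43.0% and 40.8% of the counts to stroma. The stroma clusters held 71.0% to 95.8% of the counts of each of the 6 genes in every library. In the stroma gate all markers of mesothelium, cartilage and bone, and adrenal cortex were at 0, and the 11 neural and glial markers summed to 3.11 to 8.38 CPM. A single count of another list can bar a cell from this gate, so these low values follow largely from its rule. In the wider gate used below, cartilage and bone markers summed to 25.96, 25.35, 2.73 and 15.6 CPM in wildtype 1, wildtype 2, mutant 1 and mutant 2. Neural and glial markers summed there to 31.8, 45.4, 30.9 and 30.4 CPM.

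In each library all 6 genes were higher in the stroma gate than in every nephron, ureteric and endothelial gate. The smallest gap was that of Bgn in mutant 2, at 162 CPM in stroma and 152 CPM in 13 nephron progenitor cells. Lum was at 286 and 339 CPM in wildtype stroma and 553 and 665 CPM in mutant stroma, against 0 to 12.8 CPM in wildtype podocytes, endothelium and ureteric bud. Dcn was at 1264, 1425, 1919 and 1577 CPM in the stroma gate of wildtype 1, wildtype 2, mutant 1 and mutant 2. In proximal tubule cells Dcn was at 2.32, 7.89, 0 and 13.2 CPM. Ogn was at 294, 286, 147 and 362 CPM in stroma, with mutant 1 lowest and mutant 2 highest, so the wildtype values lay between the mutant ones. Bgn, at 90.5, 103, 191 and 162 CPM, and Postn, at 670.3, 501, 980.5 and 1475 CPM, were higher in both mutant libraries than in both wildtype libraries. Fap was at 53.7, 24.9, 61.0 and 102 CPM in stroma.

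Stroma and the other gates together were compared within each library with edgeR's quasi-likelihood test, with library as a block. All 6 genes were called, beside 33.1% of the 11717 genes tested. A gene with few counts elsewhere could pass the filter through its stroma sums, so nothing is read from this count. The log2 difference, stroma over the other gates, was 6.14 ± 0.494 (SE, 4 libraries) for Dcn, 5.88 ± 0.166 for Ogn, 5.54 ± 0.122 for Postn and 5.54 ± 0.319 for Fap. It was 5.46 ± 0.139 for Lum and smallest, at 3.80 ± 0.279, for Bgn. Free RNA from broken cells can give counts in cells that do not express a gene, and it was read from the proximal tubule and erythroid gates. Taking off the proximal tubule level moved the mean stroma level of Lum over the 4 libraries from 461 to 449.8 CPM and that of Fap from 60.3 to 59.9 CPM. The erythroid level was not taken off.

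In erythroid cells of the mutant libraries the levels of Dcn, Postn and Lum were well above those in proximal tubule. The erythroid gate had enough cells to read in wildtype 2 (274 cells) and mutant 2 (88 cells), where Dcn was at 75.1 CPM (58 counts) and 415 CPM (58 counts). Lum was at 28.5 and 85.9 CPM in them. In the 2 erythroid clusters summed, which held 121, 924, 69 and 538 cells, Postn was at 17.5 and 6.32 CPM in wildtype 1 and 2 and at 156 and 254 CPM in mutant 1 and 2. Lum there was at 0 and 9.83 CPM in wildtype and 166 and 134 CPM in mutants, and Dcn at 17.5 and 33 CPM against 415 and 309 CPM. Fap was at 0 and 1.40 CPM in wildtype and at 31.1 CPM (3 counts) and 25.6 CPM (14 counts) in mutants. Each of the 6 genes was higher in the erythroid clusters of both mutant libraries than in those of both wildtype libraries, and the part of this background in the genotype values below was not tested.

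**Figure D1:**
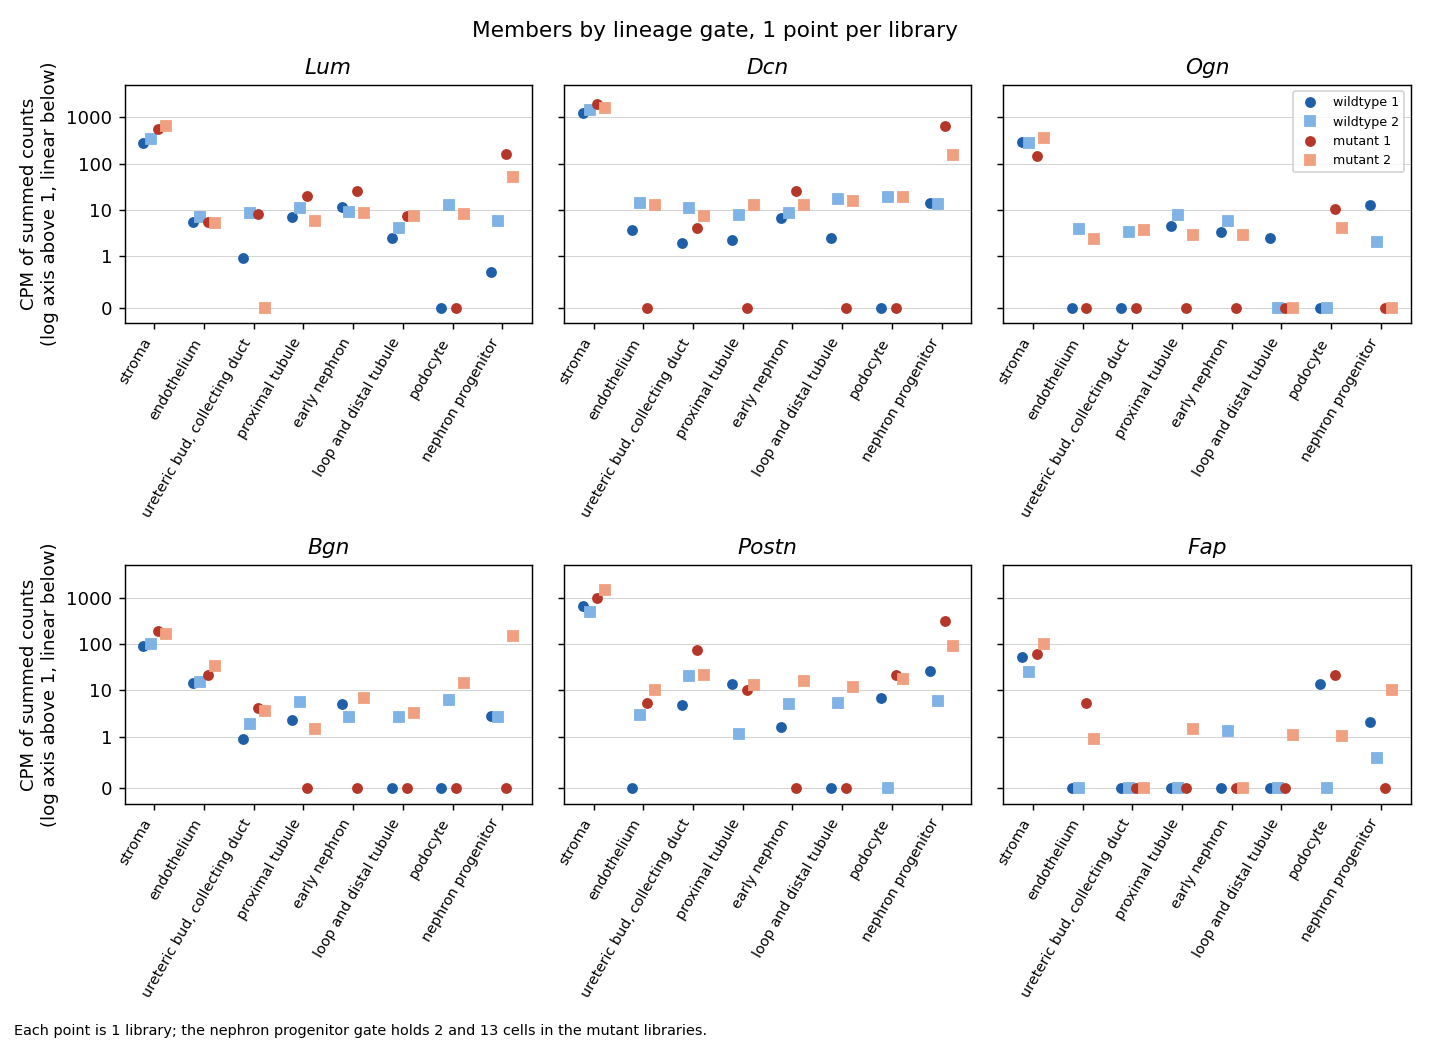
CPM of the 6 genes (vertical axis, logarithmic above 1 and linear below) in 8 lineage gates, with 1 point per library and wildtype in blue, mutant in red. Stroma points stand above those of endothelium and tubule gates for every gene; the nephron progenitor gate holds 2 and 13 cells in the mutant libraries, and the erythroid gate is not drawn.

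Outside the stroma, Bgn was the only one of the 6 with enough counts for a fit in endothelium. Its endothelial level was 14.8 CPM (8 counts), 14.95 CPM (15 counts), 21.7 CPM (4 counts) and 33.6 CPM (71 counts) in wildtype 1, wildtype 2, mutant 1 and mutant 2. In ureteric bud cells of the same libraries it was 0.964, 1.94, 4.12 and 3.64 CPM, each from 1 to 4 counts, so the endothelial level was higher in all 4 libraries. The exact Poisson intervals of the 2 gates were apart in wildtype 1, wildtype 2 and mutant 2 and overlapped in mutant 1. The genotype log2 difference of Bgn in endothelium was 0.97 ± 0.540 and was not called by edgeR, beside 0.128% of the 7830 genes tested.

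Postn was the one of the 6 that could be fitted in the ureteric bud and collecting duct gate. It was at 4.82 CPM (5 counts) and 20.3 CPM (42 counts) in wildtype and at 74.2 CPM (18 counts) and 21.9 CPM (6 counts) in mutant cells. Wildtype 2 and mutant 2 had nearly the same level, and the log2 difference of 1.78 ± 0.684 was not called by edgeR, beside 0.0997% of the 8028 genes tested. Fap had no count in that gate in any library, which allows up to 2.89, 1.45, 12.4 and 10.9 CPM (3 counts of each library's total, counting error only).

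Nephron progenitor gates were nearly empty in the mutants. The 13 cells of mutant 2 held 15 counts of Dcn (152 CPM), 15 of Bgn (152 CPM), 9 of Postn (91.3 CPM) and 5 of Lum (50.7 CPM). The 229 and 507 wildtype cells were at 14.47 and 13.7 CPM for Dcn and at 2.76 and 2.68 CPM for Bgn. With 2 cells in mutant 1 the difference had no replicate. In the nephron progenitor clusters, with 22 and 55 mutant cells, Dcn was at 7.49, 10.9, 299 and 24.9 CPM, Bgn at 0.44, 1.63, 46.0 and 6.21 CPM and Lum at 0.44, 6.99, 169 and 18.6 CPM. Mutant 2 was thus much lower there than in the small gate.

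Within stroma the 6 genes did not share one pattern. The main gate left too few cells per subtype, so subtypes were read in a wider gate, chosen after the data were seen, that held 467 and 518 wildtype and 366 and 1673 mutant cells. Subtypes were set by other genes: Foxd1, Ntn1, Crabp1 and Fibin for cortical stroma, Penk, Alx1, Cldn11 and Lef1 for medullary stroma, a list of 4 genes with Egfl6, and lists for fibroblast-type, mural and smooth muscle cells. Apart from cortical stroma, every subtype had fewer than 25 cells in some library and is described only.

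In fibroblast-type cells (Dpt, Mfap5 and related genes) Lum was at 1044 and 929 CPM in wildtype and 685 and 919 CPM in mutants, from 12, 21, 31 and 107 cells. The exact Poisson intervals of wildtype and mutant libraries overlapped for Lum. This was the subtype with the highest Lum in wildtype 1, wildtype 2 and mutant 2; in mutant 1 the subtype with Egfl6 was at 698 CPM. It was lowest in cortical stroma in wildtype 1, mutant 1 and mutant 2, at 28.9, 162 and 121 CPM; in wildtype 2 it was lower in mural cells (31.0 CPM) than in cortical cells (72.4 CPM). Dcn was at 2296, 2215, 1924 and 2199 CPM in fibroblast-type cells, again with overlapping intervals. It was highest in that subtype in wildtype 2 and mutant 2. In wildtype 1 the Egfl6 subtype was higher (2333 CPM), and in mutant 1 medullary cells (2221 CPM, 10 cells) and smooth muscle cells (2032 CPM) were. In cortical stroma Dcn was at 101, 172, 796 and 227 CPM, higher in both mutants. The summed erythroid clusters of mutant 1 and mutant 2 stood at 415 and 309 CPM, so cortical Dcn was above them in mutant 1 and below them in mutant 2. Cortical Lum in both mutants, at 162 and 121 CPM, was below the erythroid 166 and 134 CPM. The part of this background in the cortical values was not tested.

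Postn was highest in the subtype marked by Egfl6, Sfrp4, Dkk2 and Smoc2, at 2294, 665, 1491 and 2251 CPM from 18, 16, 16 and 134 cells. The genotypes overlapped there, since wildtype 1 was the highest library. In medullary stroma Postn was at 81.2 and 36.0 CPM in wildtype and 384 and 277 CPM in mutants, with no overlap. Ogn was also highest in the Egfl6 subtype in wildtype libraries, at 1196 and 594 CPM, against 254 and 372 CPM in mutants, where the Poisson interval of wildtype 1 was apart from both mutant intervals and that of wildtype 2 overlapped them. It was at 99.9 and 22.9 CPM in wildtype medullary cells and at 0 and 51.2 CPM in mutant ones.

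In both wildtype libraries Bgn varied less over the subtypes, from 33.8 to 209 CPM and from 23.8 to 276 CPM, than Lum, Dcn, Ogn and Postn did. In mutant 1 this did not hold against Lum, which ran from 162 to 698 CPM. In cortical stroma Bgn was at 33.8 and 27.2 CPM in wildtype and at 104 and 91.3 CPM in mutants. In medullary stroma it was at 137, 134, 342 and 178 CPM, and in mural cells at 117, 134, 53.1 and 106 CPM, where mutant 1 had 1 count. Fap was low in medullary stroma, at 12.5 CPM (2 counts) and 3.28 CPM (1 count) in wildtype and at 42.7 CPM (1 count) and 34.2 CPM (10 counts) in mutants. The Poisson intervals of both mutants overlapped those of the erythroid clusters of the same libraries, at 31.1 and 25.6 CPM. The part of this background was not tested. In cortical stroma Fap was at 4.82 and 13.6 CPM in wildtype and 69.2 and 94.2 CPM in mutants, from 1, 3, 6 and 32 counts.

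Cortical stroma was compared with the other subtyped stroma in the same libraries, with library as a block and the wider gate. Of the 6 genes 4 were called, beside 3.53% of the 6261 genes tested: Lum fell by 2.16 on the log2 scale (SE 0.185), Dcn fell by 2.07 (SE 0.263), Bgn fell by 1.32 (SE 0.248) and Ogn fell by 1.03 (SE 0.215). Postn was at -1.22 ± 0.309 and Fap at 0.06 ± 0.347, and neither was called. DESeq2 called 4 as well, with Postn in place of Ogn. Among the collagen fibril assembly genes 8 of 20 fell in cortical stroma in the same fit (adjusted p over all genes, edgeR) and none rose, among them Lox, which crosslinks collagen (log2 -2.06 ± 0.379, adjusted p = 0.000215, edgeR), and Pcolce, an enhancer of procollagen cutting (-1.42 ± 0.207, adjusted p = 1.97e-06). The list's median was -0.73, against 0.00 over all genes. Tgfbi, a relative of Postn, rose there by 0.84 ± 0.145 (adjusted p = 9.35e-05, edgeR), 1 of 12 matricellular genes, while 4 fell. DESeq2 called 3 of the collagen fibril assembly genes and 2 of the matricellular genes.

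**Figure D2:**
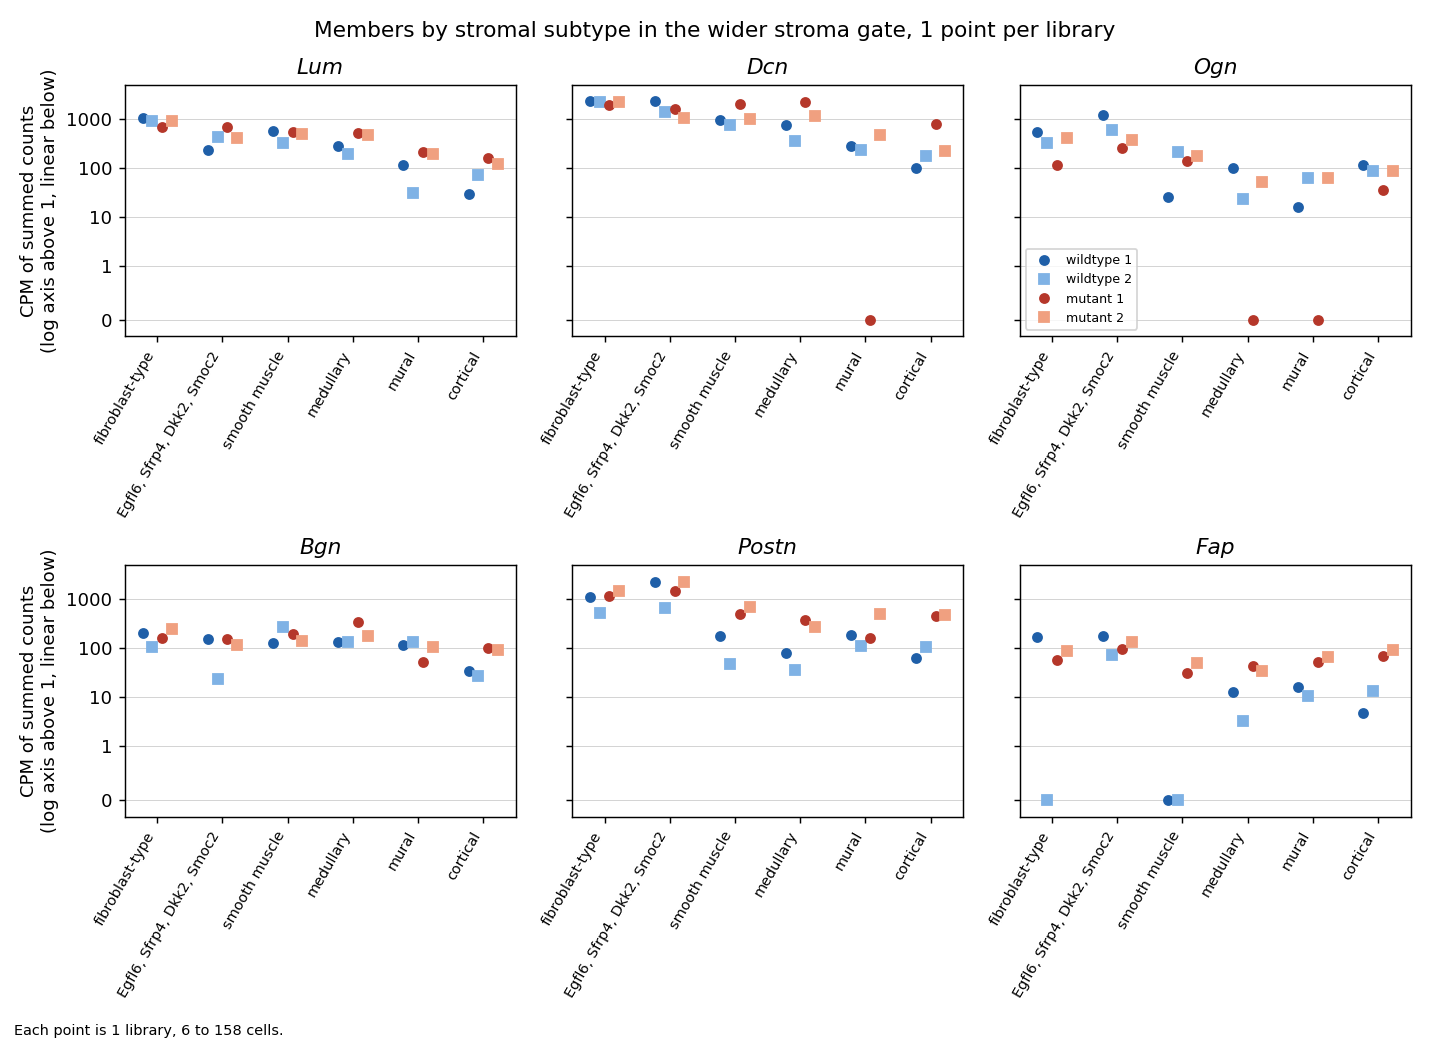
CPM of the 6 genes (vertical axis, logarithmic above 1 and linear below) in 6 stromal subtypes of the wider gate, 1 point per library, wildtype in blue and mutant in red. Postn stands highest in the Egfl6 subtype in all 4 libraries, and mutant points of Postn, Dcn, Bgn and Fap stand above wildtype points in medullary and cortical stroma. The erythroid clusters are not drawn, and Dcn in cortical stroma of mutant 2 was below their level. The Poisson intervals of Fap in medullary stroma of both mutants overlapped those of the erythroid clusters.

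Over all kept cells every one of the 6 genes was higher in both mutant libraries than in both wildtype libraries. Postn was at 66.0 and 28.3 CPM in wildtype and 338 and 374 CPM in mutants. Fap was at 6.84 and 1.98 CPM against 28.3 and 31.0 CPM. Lum was at 38.6 and 30.7 CPM against 182 and 179.8 CPM, and the mutant libraries differed little. Dcn was at 129 and 80.4 CPM against 593 and 431 CPM, and Bgn at 22.4 and 18.9 CPM against 71.8 and 74.4 CPM. Ogn was closest between genotypes, at 37.2 and 20.0 CPM against 47.1 and 80.6 CPM.

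The log2 differences, mutant over wildtype, were 2.83 ± 0.373 (SE, 2 libraries each) for Postn, 2.73 ± 0.462 for Fap, 2.27 ± 0.339 for Lum, 2.19 ± 0.362 for Dcn, 1.70 ± 0.344 for Bgn and 1.06 ± 0.360 for Ogn. In edgeR's fit over all cells 5 of the 6 were called, all but Ogn, beside 1.32% of the 15777 genes tested, and nothing is read from the count since the genes were chosen on this contrast. A sum over all cells rises with the number of stromal cells and with the RNA of each, and these cannot be told apart in it. Stroma clusters held 22.5% and 19.9% of the counts in wildtype and 43.0% and 40.8% in mutants. Without wildtype 1 the differences were 3.40 for Postn and 3.65 for Fap, and without wildtype 2 they were 2.40 and 2.09. An exact two-sided permutation test of 1 gene with 2 against 2 libraries cannot go below p = 0.33.

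Inside the strict stroma gate the log2 differences were 1.11 ± 0.413 for Postn, 1.10 ± 0.462 for Fap, 1.01 ± 0.387 for Lum, 0.92 ± 0.380 for Bgn, 0.44 ± 0.420 for Dcn and -0.15 ± 0.390 for Ogn. None of the 6 was called by edgeR or by DESeq2, beside 0.339% of the 6492 genes tested, and nothing is read from that count either. Whether the difference over all cells exceeds that within the gate was not tested. The gate selects on collagen counts: Col1a2, one of its markers, was at 6160, 2738, 9281 and 8974 CPM inside it. Malat1 inside the gate was at 3521, 3198, 5826 and 8916 CPM and the 8 erythroid markers together at 238, 1294, 338 and 529.9 CPM. Medullary markers summed to 639 and 1098 CPM in wildtype and 162 and 382 CPM in mutants, with all 4 genes lower in both mutants, and the 8 nephron progenitor markers to 25.4 and 21.8 CPM against 103 and 81.8 CPM. The part of these in the differences was not tested.

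With the wider gate the differences were 1.74 ± 0.385 for Postn, 1.57 ± 0.410 for Fap, 1.14 ± 0.347 for Lum, 0.996 ± 0.411 for Dcn, 0.69 ± 0.309 for Bgn and -0.03 ± 0.324 for Ogn. None was called there by edgeR, beside 0.0858% of the 10484 genes tested. Subtypes made up different shares of that gate's cells: medullary cells were 10.1% and 17.2% in wildtype and 2.73% and 5.14% in mutants, fibroblast-type cells 2.57% and 4.05% against 8.47% and 6.40%, and smooth muscle cells 3.64% and 4.63% against 7.10% and 9.44%. The part of this shift in the differences was not tested. In the stroma clusters they were 2.003 ± 0.421 for Postn, 1.81 ± 0.442 for Fap, 1.71 ± 0.345 for Lum, 1.48 ± 0.418 for Dcn, 0.93 ± 0.324 for Bgn and 0.26 ± 0.345 for Ogn. Lum and Postn were called in the clusters, 2 of 6, beside 0.758% of the 11879 genes tested, which like the other counts only restates the choice of the genes. Clusters contributed unequally: cluster 3 held 4.37% and 4.70% of kept wildtype cells and 12.5% and 10.6% of mutant cells, and cluster 14 held 3.13% and 3.82% against 1.85% and 2.73%. The erythroid markers stood at 316 and 9820 CPM in the wildtype and 298 and 1691 CPM in the mutant stroma clusters, and their part was not tested. In cortical stroma of the wider gate Postn was at 62.7 and 109 CPM in wildtype and 449.9 and 474 CPM in mutants, a log2 difference of 2.46 ± 0.436. The other differences there were 3.14 ± 0.799 for Fap, 1.90 ± 0.556 for Dcn, 1.67 ± 0.587 for Bgn, 1.44 ± 0.557 for Lum and -0.54 ± 0.537 for Ogn. Postn was the 1 of the 6 called there, beside 0.733% of the 3955 genes tested, from which again nothing is read.

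The distance between genotypes varied over the stroma clusters. Clusters were made from other genes of the same cells, so these values are a description with no test. Clusters 16, 20 and 21 got no lineage name and are not counted as stroma here. Cluster 20, with Myh11 and Acta2 among its leading genes, had Lum at 697 and 818 CPM in wildtype and 1155 CPM in mutant 2. Mutant 1 had 3 cells of it and no Lum count. In cluster 16 Postn was at 78.1 CPM (1 count) and 0 CPM in wildtype and 1018 and 909 CPM in mutants. Cluster 3, whose leading genes beside the 6 included Nefm, Figf and Col1a2, had Postn at 154 and 71.7 CPM in wildtype and 1065 and 1145 CPM in mutants. Lum in that cluster was at 259 and 226 CPM against 677 and 743 CPM, and Fap at 24.3 and 4.14 CPM against 61.1 and 80.5 CPM. In cluster 3 the levels of all 6 genes were higher in both mutant libraries than in both wildtype libraries. Ogn was at 182 and 132 CPM against 188 and 322 CPM. The exact Poisson intervals of wildtype 1 and mutant 1 overlapped for Ogn, Bgn and Fap. Those of wildtype 1 and mutant 2 also overlapped for Bgn, and those of wildtype 2 and mutant 1 for Ogn.

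Cluster 10, led by Mfap5, Cxcl13, Ren1, Dkk2 and Sfrp4, had high levels in both genotypes. Lum was at 496 and 617 CPM in wildtype and 600.2 and 544 CPM in mutants. Postn was at 1614 and 904 CPM against 1579 and 2143 CPM, and Dcn at 2240 and 1583 CPM against 2559 and 1834 CPM. Genotypes overlapped in cluster 10 for Lum, Dcn, Ogn, Postn and Fap, while Bgn was at 116 and 119.5 CPM against 189.5 and 184 CPM. The exact Poisson intervals of Bgn overlapped for every pair of a wildtype and a mutant library. Mutant 1 supplied 29 cells of it, the fewest.

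In the cortical-like cluster 4 Postn was at 109 and 54.8 CPM in wildtype and 542 and 494 CPM in mutants, and Dcn at 25.1 and 35.5 CPM against 392 and 159 CPM. Ogn overlapped there, at 91.9 and 50.8 CPM against 49.7 and 83.2 CPM. In the medullary-like cluster 14, with 15 cells in mutant 1, Postn was at 54.3 and 12.4 CPM against 237 and 184 CPM and Bgn at 145 and 149 CPM against 237 and 234 CPM. Clusters 5 and 15, led by histone and mitotic genes, had Postn at 42.1 to 112 CPM in wildtype and 356 to 542 CPM in mutants. Ratios of mutant to wildtype means of Postn were 9.80 in cluster 3, 6.34 in cluster 4, 7.12 in cluster 5, 6.33 in cluster 14, 7.03 in cluster 15, 1.75 in the mural-like cluster 18 (4 cells in mutant 1) and 1.48 in cluster 10. In cluster 4 the mutant levels of Lum, 89.4 and 53.0 CPM, and Dcn in mutant 1 and mutant 2 were below those of the summed erythroid clusters of the same libraries, while those of Postn were above. In cluster 14 Postn of mutant 2 was below the erythroid level of 254 CPM. Postn of mutant 1 there rested on 7 counts, and its Poisson interval overlapped that of the erythroid clusters (156 CPM). The part of this background in the ratios was not tested.

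**Figure D3:**
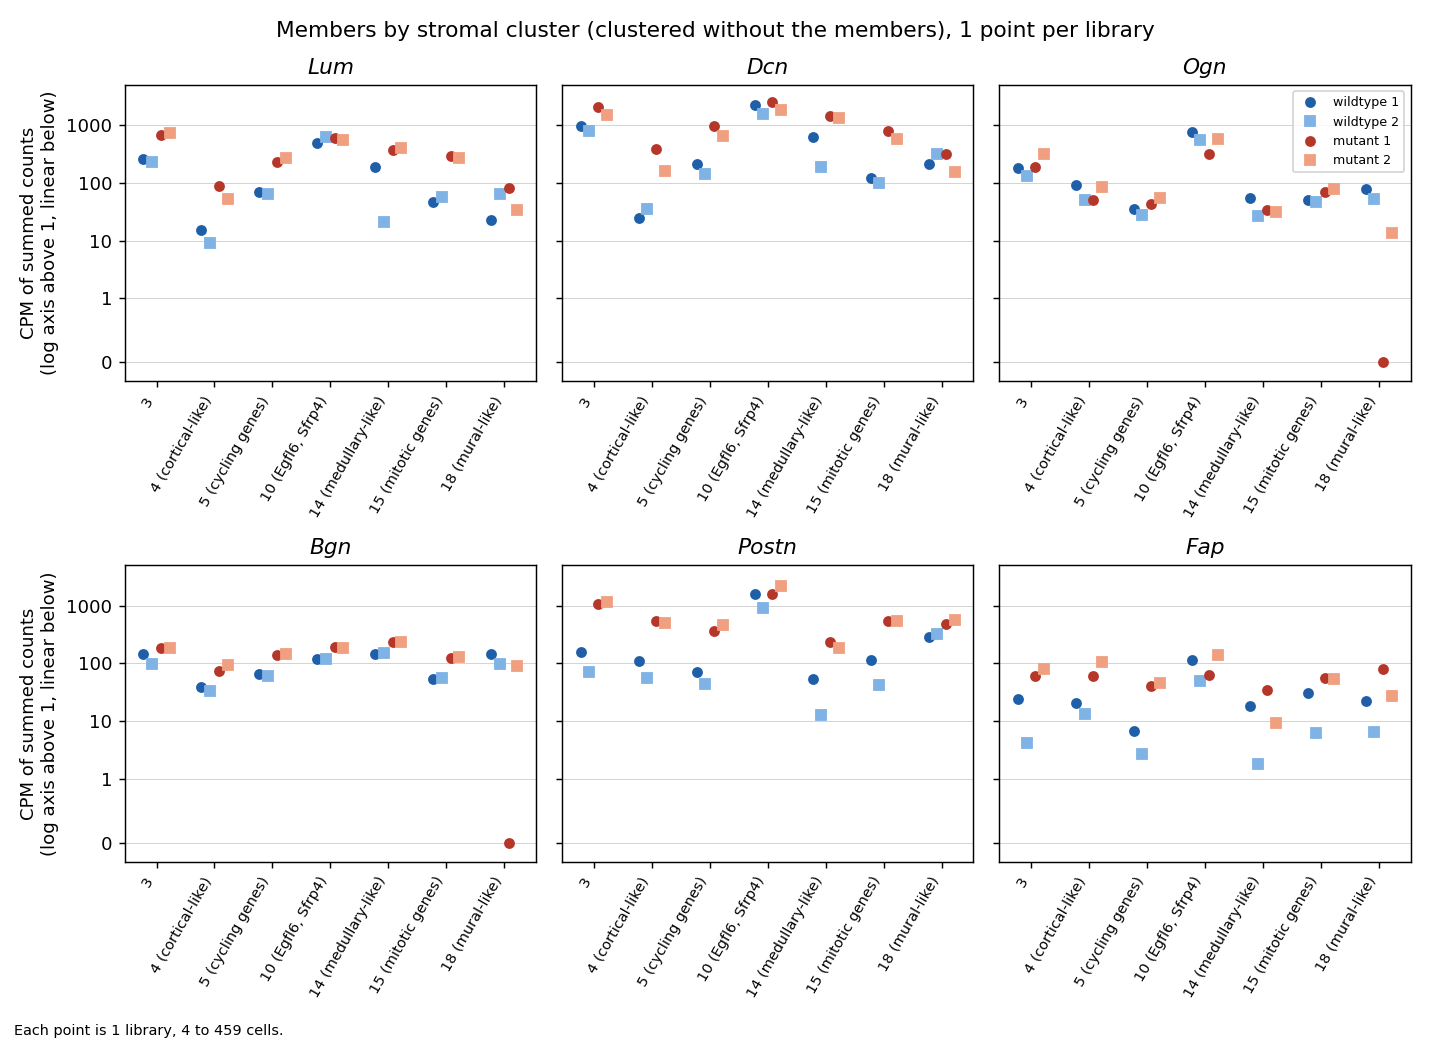
CPM of the 6 genes (vertical axis, logarithmic above 1 and linear below) in 7 stromal clusters, 1 point per library, wildtype in blue and mutant in red. Red points stand above blue points for Postn and Lum in clusters 3, 4, 5, 14 and 15 and mix with them in cluster 10. Clusters were made from other genes of the same cells. The erythroid clusters are not drawn, and Postn in cluster 14 of mutant 2 was below their level. Clusters 16, 20 and 21, which got no lineage name, are not drawn either.

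Shares of cells with a count were read after thinning each cell of the wider stroma gate to 1000 UMIs (counts), which left out 31, 33, 61 and 179 shallower cells. Postn was found in 20.6% (exact binomial 95% interval 16.9 to 24.8) and 14.4% (11.4 to 17.9) of wildtype cells and in 48.2% (42.5 to 54.0) and 47.8% (45.2 to 50.4) of mutant cells. Without thinning the Postn shares were 33.8%, 23.8%, 67.5% and 68.3%, at median depths of 2677, 2834, 2198 and 2873 counts. Where Postn was found after thinning, the mean was 2.37, 1.54, 1.86 and 2.18 counts per cell, and the genotypes overlapped.

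Lum was found in 12.4% and 16.1% of wildtype and 30.2% and 29.6% of mutant cells, and Dcn in 27.8% and 32.2% against 56.7% and 46.8%. Mean counts in cells with Lum were 1.96, 1.81, 1.61 and 1.78. Bgn was found in 10.3%, 8.87%, 11.8% and 13.8% of cells, with the intervals of wildtype 2 and mutant 2 apart and those of the other wildtype and mutant pairs overlapping. Fap was found in 5.05%, 1.03%, 6.23% and 8.50%, and Ogn in 13.5%, 12.2%, 9.51% and 17%. In proximal tubule cells of the same thinning, at median depths of 3894 to 5460 counts, Postn was found in 2.82%, 0%, 0% and 0% and Dcn in none; with 71, 140, 16 and 108 cells a count of 0 allows up to 4.22%, 2.14%, 18.8% and 2.78% of cells with a Dcn count at the thinned depth (3 cells of each total), which does not limit the cells that hold Dcn RNA. Without thinning Dcn was found in 1.37%, 3.50%, 0% and 8.18% of proximal tubule cells. Erythroid-gated cells of the wider gate, at median depths of 1012 and 806 counts, had Postn in 2.04% of 392 cells of wildtype 2 and in 22.1% of 77 cells of mutant 2, and Dcn in 3.83% and 27.3%. The stromal shares of Postn and Dcn were above these in both libraries. At least 1 of the 6 genes was found in 47.7% and 49.9% of wildtype and 76.1% and 76.2% of mutant stromal cells, and at least 3 in 12.6%, 8.66%, 25.9% and 27.6%.

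Pairs of the 6 differed in how often they were found together. Among thinned stromal cells with Lum, Dcn was found in 72.2%, 69.2%, 81.5% and 76.5%, and among those without Lum in 21.5%, 25.1%, 46.0% and 34.3%. Ogn was found in 35.6%, 41.4%, 12.2% and 26.3% of cells with Postn and in 7.80%, 7.23%, 6.96% and 8.46% of cells without it. Fap was not found more often with Lum in wildtype 1, wildtype 2 and mutant 2: it was found in 3.70%, 0%, 7.61% and 8.37% of cells with Lum and in 5.24%, 1.23%, 5.63% and 8.56% of cells without it. These shares describe cells that share a library and are not tested.

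**Figure D4:**
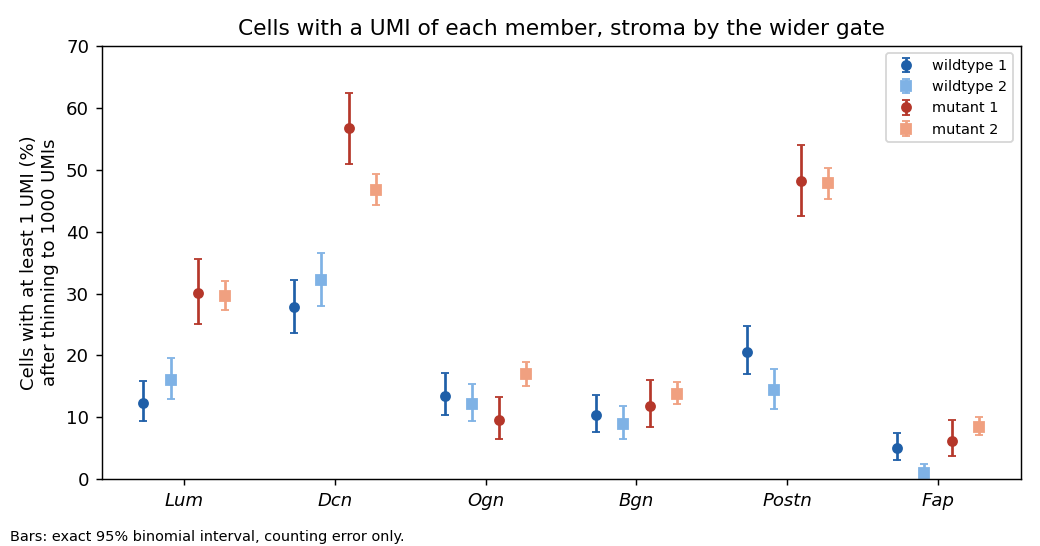
Share of stromal cells (wider gate) with at least 1 UMI of each gene after thinning to 1000 UMIs per cell, in percent, 1 point per library with exact 95% binomial intervals that cover counting error only. Mutant points for Postn, Lum and Dcn stand above wildtype points, and those for Ogn overlap them.

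The other genes of these pathways were read from 6 lists. Over all kept cells 152 genes (0.963%) rose and 56 (0.355%) fell in edgeR's fit, and the median log2 difference of all genes was 0.01. Of 18 matricellular genes tested 4 rose and 0 fell. Sparcl1, a relative of the collagen-binding protein SPARC, was at 93.5, 44.4, 293 and 295 CPM in wildtype 1, wildtype 2, mutant 1 and mutant 2 (log2 2.003 ± 0.353, adjusted p = 0.00124, edgeR). Fbln5, a fibulin of elastic fibres, was at 19.0, 17.6, 74.1 and 66.1 CPM (1.81 ± 0.349, adjusted p = 0.00315, edgeR). Spon1 (1.53 ± 0.372, adjusted p = 0.0282, edgeR) and Wisp1 (1.52 ± 0.392, adjusted p = 0.0437, edgeR) also rose. The median of the matricellular list was 0.82, and DESeq2 called 3 of its genes.

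Of 22 genes of collagen fibril assembly 5 rose and 0 fell, with a median of 0.85. Col6a1, a chain of the beaded collagen VI to which Dcn and Bgn bind, was at 21.2, 16.2, 61.6 and 114 CPM (log2 2.11 ± 0.361, adjusted p = 0.00101, edgeR), and Col6a2 was close to it (2.08 ± 0.364, adjusted p = 0.00116, edgeR). Adamts2, which trims procollagen, rose by 2.19 ± 0.393 (adjusted p = 0.00155, edgeR) and Col5a1, which nucleates fibrils, by 1.75 ± 0.348 (adjusted p = 0.00423, edgeR). Of 20 ligands and receptors that bind the 6 proteins 2 rose and 0 fell. Tgfb1 was at 1.21, 1.90, 10.9 and 9.43 CPM (2.49 ± 0.470, adjusted p = 0.00271, edgeR) and Tgfb2 at 31.3, 19.6, 67.2 and 98.3 CPM (1.59 ± 0.350, adjusted p = 0.0112, edgeR). DESeq2 called 5 of the collagen genes and 2 of the ligands and receptors.

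None passed among the 6 other small leucine-rich proteoglycans tested, the 8 prolyl peptidases related to Fap and the 18 genes of glycosaminoglycan chain synthesis, whose products build the sugar chains of these proteoglycans. DESeq2 called none in these 3 lists either, and 2, 1 and 3 genes had an unadjusted p under 0.05. The medians were 1.16, 0.03 and 0.50. Nearest to the threshold were Prelp (log2 1.89 ± 0.629, adjusted p = 0.208, edgeR), Csgalnact1, which starts chondroitin chains (1.27 ± 0.406, adjusted p = 0.147, edgeR), and Prcp (-1.30 ± 0.399, adjusted p = 0.12, edgeR). Next were Tsku (1.38 ± 0.562, adjusted p = 0.346, edgeR), Chst14, a sulfotransferase of dermatan chains (0.88 ± 0.382, adjusted p = 0.415, edgeR), and Dpp9 (-0.61 ± 0.365, adjusted p = 0.67, edgeR). The markers of whole-organ composition moved with these results: the 9 stroma markers summed to 2075, 1032, 5331 and 5114 CPM, and the part of that shift in the list counts was not tested.

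Inside the stroma gate 13 genes (0.2%) rose and 9 (0.139%) fell. Of 14 matricellular genes 1 rose and 1 fell. Spon1 had 2 and 0 counts in wildtype and 26 and 140 counts in mutant stroma (5.66, 0, 49.6 and 69.0 CPM, adjusted p = 0.00693, edgeR). Nov, a CCN family protein, had 24 and 9 counts in wildtype and 4 and 6 in mutants (67.9, 28, 7.63 and 2.96 CPM, log2 -3.46 ± 0.714, adjusted p = 0.0232, edgeR). DESeq2 called neither. With so few counts in the other genotype, Spon1 could pass the filter through its mutant sums and Nov through its wildtype sums. The calls of Spon1 and Nov are therefore a description, and nothing is read from them. Of 20 collagen fibril assembly genes, 9 of chain synthesis and 9 ligands and receptors none passed in edgeR or DESeq2, with 4, 0 and 1 at an unadjusted p under 0.05. Tgfb2 was at 90.5, 74.7, 134 and 279 CPM there (1.36 ± 0.399, adjusted p = 0.243, edgeR), and Tgfb3 differed by 0.41 ± 0.455 (adjusted p = 0.999, edgeR). Of the collagen genes Plod2, a lysyl hydroxylase, was at 0.86 ± 0.370 (adjusted p = 0.75, edgeR) and Col6a2 at 0.82 ± 0.380 (adjusted p = 0.827, edgeR). Of the chain genes Chst14 was at 0.34 ± 0.468 and B4galt7 at -0.40 ± 0.678 (adjusted p = 0.999 for both, edgeR). No prolyl peptidase had enough counts to be tested there. Aspn, the 1 other proteoglycan tested, which lies 40.5 kb before Ogn, was at 62.2, 43.6, 11.4 and 32.0 CPM (-1.11 ± 0.484, adjusted p = 0.762, edgeR).

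Against the other gates, all 21 collagen fibril assembly genes tested rose in stroma, with 14 of 15 matricellular genes and 4 of 4 other small leucine-rich proteoglycans, where 15.5% of all genes rose. Of the 14 proteoglycans listed only these 4 were tested. A gene with few counts elsewhere could pass the filter through its stroma sums, and the gate selects on collagen counts. These counts are therefore a description. Aspn rose by 5.81 ± 0.451 (adjusted p = 2.15e-08, edgeR) and Prelp by 5.67 ± 0.703 (adjusted p = 6.51e-06, edgeR). Chain synthesis genes rose in 7 of 17 cases, led by Dsel (2.35 ± 0.321, adjusted p = 1.94e-05, edgeR), whose enzyme makes dermatan sulfate. Of the peptidases related to Fap none rose and 2 of 8 fell, where 17.6% of all genes fell. The 2 were Prcp, and Dpp4, a close relative of Fap that lies 88.7 kb from it on chromosome 2 (-4.18 ± 0.95, adjusted p = 0.0464, edgeR). DESeq2 called 1 of the 8 peptidases. Dpp4 was at 33.9, 9.33, 0 and 2.96 CPM in the stroma gate and at 74.2, 37.2, 48.7 and 115 CPM over all cells. Among the ligands and receptors 8 of 16 rose, such as Egfr, a receptor that Dcn binds (4.09 ± 0.402, adjusted p = 4.05e-07, edgeR), and 3 fell, Erbb4, Met and Tgfb1. The numbers that fell in the peptidase and the ligand and receptor lists were near the share of all genes, and nothing is read from them.

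**Figure D5:**
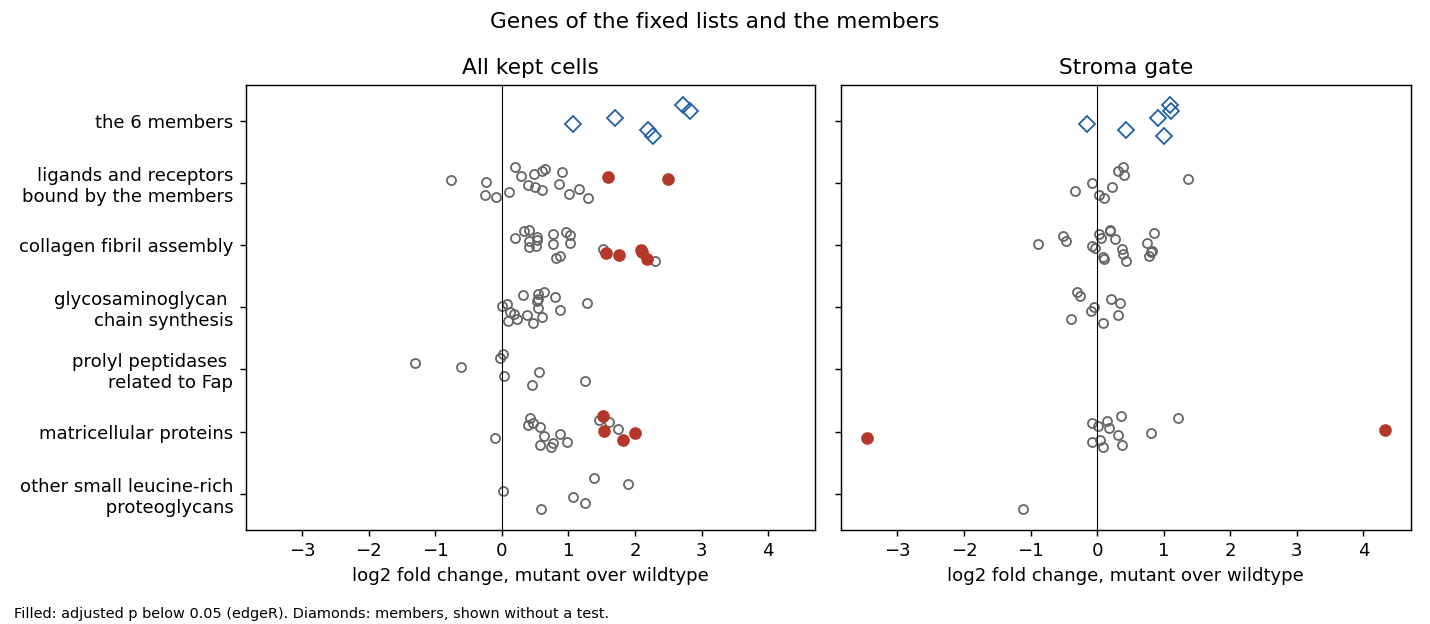
Log2 fold change, mutant over wildtype (horizontal axis), of each gene of 6 lists over all kept cells (left) and in the stroma gate (right). Filled points passed edgeR's test at an adjusted p of 0.05, open points did not, and diamonds are the 6 genes, shown without a test; over all cells the filled points lie at 1.52 and above.

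Neighbouring genes differed in how far they shared the levels of the 6. In the stroma clusters Lum was at 128, 109.8, 375 and 395 CPM and Dcn at 494, 329.7, 1277 and 957 CPM, while Kera and Epyc, 34.2 kb and 71.4 kb beyond Lum and of the same protein family, had 0 to 3 counts in each library. Beside Ogn, Aspn was at 18.1, 14.6, 9.95 and 18.8 CPM and Omd, at 15.2 kb, at 2.45, 3.33, 0.766 and 1.43 CPM, so neither was higher in both mutants. Trpc4, 42.6 kb before Postn, had 0 to 4 counts per library.

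Genes with the most similar levels were ranked by Pearson's r of log2(CPM + 5) over 12 sums, the stroma, endothelium and ureteric bud gates in 4 libraries, among 9326 genes. The r is a description, since sums of a library share its depth and the 3 gates are dominated by the step from stroma to the others. Lum was most like Col1a1, which defines the gate (r = 0.988), then Srpx, 1500015O10Rik, Cdh11 and Fbln5. Dcn was nearest to Tgfbi (0.993), Cygb, Dlk1 and Cd248, and Ogn to Gucy1b3 (0.995), S1pr3, Dlk1, Serping1 and Cygb. Bgn was nearest to Zfp9 (0.984), G630016G05Rik, Nfic, Aebp1 and A830082K12Rik. Postn was nearest to Sfrp1 (0.982), Enpep, Alcam, Meg3 and Tgfb3, and Fap to Agtr2 (0.985), Col8a2, Col1a2, which defines the gate, Thbs2 and B3gnt9.

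Over 76 sums of 19 clusters the closest pairs within the 6 were Lum with Dcn (r = 0.918) and Postn with Fap (r = 0.897). The lowest was Lum with Ogn (r = 0.775). Figf was the gene most like both Lum (0.921) and Dcn (0.936) there, and Col6a1 was among the 5 nearest genes of Dcn, Ogn, Bgn and Postn.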

How the data were processed

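The authors deposited 1 table of raw counts per gene and barcode for each library, whole numbers with no normalization found. Bowtie2 (2.2.7) and the mm10 build are listed in the submitters' processing notes, with no role given. Annotation, strand and the collapsing of molecular identifiers are not given in the sources used here; counts are called UMIs, and intervals cover counting error only. Barcodes with at least 500 genes and at most 10% mitochondrial counts were kept, without the 5% of highest Scrublet score per library. A lineage gate needed 3 UMIs from 2 genes of its list and a lead of 2 times over every other of 15 lists. The wider gate took a list ratio above 0.5 in place of 1. In it another list could block a cell only with 2 UMIs from 2 genes, where any UMI counted in the main gate. The wider gate and stromal subtypes within it were added after the data were seen. Leiden clusters (scanpy 1.11.5, 2000 variable genes without the 6, 30 components, 15 neighbours, resolution 1) were the other view. Mitochondrial, Hox, haemoglobin, ribosomal protein and some sex-linked genes were also left out of them. Each gene was centred and scaled within each library before clustering, and the effect of this on cluster membership was not tested.

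Counts were summed per library and tested with edgeR 4.0.16 (R 4.3.3, TMM, filterByExpr, robust quasi-likelihood, Benjamini-Hochberg, threshold 0.05), for gates with at least 25 cells in every library; DESeq2 1.42.0 was an alternative. Alternatives changed the test, filters, gates, libraries and block, and the fit was tested on simulated data. The 6 genes, the lists and the rules were chosen with earlier results of these data known. All 6 genes were named throughout; of each list, up to 4 called genes with the largest change were named, or the 2 with the smallest p, and other genes named from lineage, cortical and neighbour comparisons were chosen after their values were seen. For likeness the 5 genes of highest r with a mean of at least 10 CPM were taken. One gene among them is not reported here.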

Additional observations from a re-analysis of the deposited data

How the results depend on the processing

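Over all kept cells 208 genes were called, and 192 with DESeq2. Leaving out each library in turn gave 269 to 395 (wildtype 1 left out, 377; mutant 1 left out, 335; mutant 2 left out, 395). With the replicate number as a replicate block the counts were 160 over all cells and 38 in the stroma gate, against 22 without it. Same-numbered libraries did not pair: their deviations correlated at 0.0818 over all cells and -0.135 in the stroma gate, and crossed numbers gave 157 and 0 calls. In the stroma gate the other counts were 11 with DESeq2, 61 without a filter on low counts, 41 without the mitochondrial limit, 9 with the wider gate, 90 with clusters and 0 with a lead of 4 times, where 245 genes had an unadjusted p under 0.05 (379 with crossed numbers). Leaving out each library gave 31 to 66 there (56 without wildtype 1, 46 without wildtype 2, 66 without mutant 2), and 2183 to 3658 for stroma against the other gates (3879), lowest without mutant 2. For cortical stroma (221, wider gate) DESeq2 gave 82 and leaving out a library 91 to 221, lowest without wildtype 1 and 122 without wildtype 2. The cause was not tested.

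Over 11 alternatives for all cells the log2 differences of the 6 genes kept their sign, Postn between 2.40 and 3.40 and Ogn between 0.69 and 1.42. Over 15 alternatives in the stroma gate Ogn ranged from -0.81 to 0.31, with the other sign in 3, and Dcn from 0.22 to 1.48. Thinning to 500 or 2000 UMIs moved the mutant minus wildtype difference in shares, in percentage points, to 9.94 and 24.7 for Lum (15.6 at 1000), to 21 and 40.3 for Postn (30.5), to 30.2 at 2000 for Dcn (21.8) and to 1.25 at 500 for Bgn (3.2). For Ogn it was -1.75 at 500, 0.41 at 1000 and 4.86 at 2000, a change of sign, and for Fap 1.84, 4.33 and 7.30. Subtypes with a higher UMI minimum, and taking off the erythroid level in every library, were not run, since too few cells were left (2 erythroid-gated cells in wildtype 1 and 1 in mutant 1); the proximal tubule served in its place. An interaction fit and a lineage fit over clusters were made and are not given, since the clusters came from the same cells. Depth limits Fap most, with 8 to 206 counts per library in the stroma gate.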
